A study of Mus musculus with 12 samples.

Results

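The interaction of curdlan with the Il2 genotype was measured for 19937 genes on all 12 arrays of the study. For each gene it is the curdlan response of the knockout cells (treated minus untreated) minus the curdlan response of the wild-type cells, on the log2 scale, so a negative value marks a lower response in the knockout. Every gene with a probe set that carried exactly 1 symbol was a member, and the probe set with the highest mean over the 12 arrays stood for the gene. No gene was chosen for its response.

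Mouse bone marrow was cultured with GM-CSF (200 ng/ml, 7 days), a growth factor that yields dendritic cells, and CD11c-bearing cells were then bound to magnetic beads. The 4 groups of 3 arrays crossed the genotype, wild type or Il2 knockout, with the treatment, none or 6 h of curdlan. For wild type and knockout alike the strain is given as B6.129P2-Il2tm1Hor/J, and genotype was read from its own label and the title. The knockout is a germline allele, present in every cell of the culture and in the animal the marrow came from. The study asked about the role of IL-2 in these cells, and the interaction asks whether the response to curdlan depends on the Il2 gene.

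Curdlan is a particulate beta-glucan that binds the lectin receptor Dectin-1 (gene Clec7a). Dectin-1 signals through the kinase Syk and the adaptor Card9 to NF-kB, and through calcium and calcineurin to the NFAT factors, which switch on Il2. IL-2 is best known as a growth factor of T cells. It acts through a receptor of alpha (Il2ra), beta (Il2rb) and common gamma chains, the kinases Jak1 and Jak3, and the transcription factor STAT5. Dendritic cells make IL-2 early after a microbial stimulus and can carry the alpha chain, CD25, at high levels.

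The 250 bases before the start of 3 genes are shown for their interaction p-values in the fit that did not pair the replicates. There Il2 had the lowest of all genes, and Rsad2 and Ifi205 the lowest among the interferon-stimulated genes described below. They are RefSeq sequence on GRCm38.p6, each on the minus strand and written 5′ to 3′ towards the start: Il2 at chr3:37125955-37126204, Rsad2 at chr12:26456453-26456702 and Ifi205 at chr1:174031756-174032005. Capitals mark the NFAT core GGAAA or its other-strand form TTTCC in Il2, and, in Rsad2 and Ifi205, the interferon-stimulated response core, 2 copies of GAAA with any 2 bases between them, or its other-strand form, 2 copies of TTTC spaced likewise.
Il2: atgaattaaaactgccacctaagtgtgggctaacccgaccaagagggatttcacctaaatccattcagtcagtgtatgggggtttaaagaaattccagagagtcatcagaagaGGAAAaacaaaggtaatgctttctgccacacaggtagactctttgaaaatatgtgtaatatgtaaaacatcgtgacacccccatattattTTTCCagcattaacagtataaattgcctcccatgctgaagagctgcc
Rsad2: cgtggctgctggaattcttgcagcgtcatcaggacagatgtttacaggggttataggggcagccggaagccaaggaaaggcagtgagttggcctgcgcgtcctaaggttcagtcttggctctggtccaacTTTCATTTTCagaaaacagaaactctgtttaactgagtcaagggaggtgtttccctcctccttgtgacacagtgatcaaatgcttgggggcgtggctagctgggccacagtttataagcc
Ifi205: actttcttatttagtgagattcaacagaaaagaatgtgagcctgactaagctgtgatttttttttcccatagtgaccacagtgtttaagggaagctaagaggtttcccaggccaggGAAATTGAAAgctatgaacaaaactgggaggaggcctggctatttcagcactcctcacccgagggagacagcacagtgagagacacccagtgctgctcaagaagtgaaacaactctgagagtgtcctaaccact
The Il2 window held 2 matches to GGAAA, beginning 137 and 47 bases before the start. The response core began 120 bases before the start of Rsad2 and 134 bases before that of Ifi205. Of all 32851 promoter windows of this length in the table, 2.98% held the response core and 55.6% held GGAAA, so the shorter motif is common. The matches describe the letters and not binding.

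All 12 arrays had alike distributions, with medians between 6.59 and 6.64 and correlations between 0.981 and 0.997 across probe sets. Itgax, which encodes CD11c, had group means between 12.91 and 13.03. Among markers of lymphoid cells, Cd3e of T cells had 6.37 to 6.67, Ms4a1 of B cells 4.33 to 4.44 and Ncr1 of NK cells 4.58 to 4.79. Of 12 T cell markers, 2 were above the median gene mean of 6.96: Cd28 (7.31 to 9.66 over the arrays) and Lat (8.76 to 9.79). The part of such cells in the results was not tested. Untreated and treated arrays of a genotype with the same number matched in Y-linked transcripts: Eif2s3y was high in wild-type pair 1 (9.67 and 9.39) and in knockout pairs 2 (8.72 and 8.41) and 3 (9.99 and 9.87), and between 4.15 and 4.46 elsewhere. The numbers are therefore used below as 3 pairs per genotype, and a value per pair is the treated minus the untreated array. The pairs with high Y-linked levels were not spread evenly over the genotypes. Sex therefore cannot be fully told apart from genotype, and its part in the results was not tested.

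Il2, the disrupted gene, had the lowest p-value of all genes in the fit that did not pair the replicates. The untreated wild-type arrays gave log2 levels of 5.56, 5.37 and 5.53, and the curdlan-treated ones 7.80, 7.22 and 6.74. The untreated knockout arrays gave 6.04, 5.88 and 5.77, and the treated ones 5.87, 5.80 and 5.63. All 3 treated wild-type arrays stood above the other 9, and in the knockout the treated and untreated arrays overlapped. The wild-type pairs rose by 2.23, 1.86 and 1.21, whereas the knockout pairs gave -0.17, -0.08 and -0.14. Il2 rose 3.4-fold in wild type (log2 change 1.77 ± 0.20, SE, adjusted p 0.000159, limma), and in the knockout the log2 change was -0.13 ± 0.20 (adjusted p 0.652).

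The Il2 interaction was -1.89 ± 0.28 (SE, 95% interval -2.51 to -1.28, p 2.58e-05). After adjustment over the 19937 genes the p was 0.357, so Il2 did not pass the threshold of 0.05. With the replicate pairs as a block the adjusted p was 0.108, and over all alternatives tried it ranged from 0.0113 to 1. It passed without treated wild-type array 1 (interaction -1.62, adjusted p 0.0338), without treated wild-type array 3 (-2.15, adjusted p 0.0113) and without both arrays of wild-type pair 3 (-2.17, adjusted p 0.0286). The untreated wild-type levels, all knockout levels and that of treated wild-type array 3 (6.74) lay below the median gene mean of 6.96. Knockout minus wild type was 0.41 untreated (adjusted p 0.524, limma) and -1.48 with curdlan (adjusted p 0.0114). The untreated knockout arrays all lay above the untreated wild-type arrays, so part of the interaction lay on the untreated side. Where the Il2 probes lie relative to the disrupted exons is unknown here, so its level in the knockout does not check the label.

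The same test called 0 of 19937 genes (0%) at an adjusted p under 0.05. At an unadjusted p under 0.05 it marked 552 genes (2.77%), 354 (1.78%) with a higher and 198 (0.993%) with a lower response in the knockout. The pair block marked 1094 (5.49%) and called 0 after adjustment. The fit with the pair as a random block marked 1003 and also called 0, with a lowest adjusted p of 0.058. With the fixed and with the random block, Hbb-y and not Il2 had the lowest p. Leaving out single arrays or pairs called up to 3 genes: Il2 and Macc1 without treated wild-type array 1, Il2 and Hbb-y without treated wild-type array 3, Ifi205 without untreated knockout array 1 (-1.33, adjusted p 0.0441), and Il2, Hbb-y and Ehf without wild-type pair 3. Macc1, Hbb-y and Ehf are named here because their calls were seen.

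The width of the intervals says how large an interaction these arrays could have missed. The median SE was 0.11, and a gene with that SE would have needed an interaction of 0.96 to pass on its own. The 95% interval lay within 1 log2 unit of 0 for 98.4% of genes and within 0.5 for 85.9%. The share was lower in some of the gene lists described below. The interval lay within 1 for 22 of 37 interferon-stimulated, 26 of 35 cell cycle and 15 of 21 chemokine genes, and for all 19 NF-kB genes. Over all genes the median size of the interaction was 0.07, and 10 genes had an estimate of 1 or more in size. The higher response was in the knockout for 6 of them: Cd209a (1.03), Cd209c (1.11), Ehf (1.14), Gbp2b (1.06), Ms4a4c (1.05) and Nos2 (1.10). The other four were Il2, the integrin subunit gene Itgb8 (-1.41), Ifi205 (-1.05) and the cytokine gene Il12b (-1.03).

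The responses of both genotypes ran together across genes (Pearson r 0.92 over 19937 genes, which are not independent replicates). In wild type, curdlan raised 1449 genes (7.27%) and lowered 2450 (12.3%). In the knockout it raised 1853 (9.29%) and lowered 2628 (13.2%). Of these, 2958 genes were called in both, 75.9% of the wild-type calls and 66% of the knockout calls, and all 2958 had the same direction. Of the 941 genes called in wild type only, 96% had the same sign in the knockout and 120 (12.8%) had an unadjusted interaction p under 0.05. For the 1523 genes called in the knockout only, 94.8% had the same sign in wild type and 188 (12.3%) had such a p. Over all genes 2.77% did, and genes called in 1 genotype only are chosen in part for unequal responses. No interaction passed after adjustment, so a call in a single genotype is not shown to differ between the genotypes.

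**Figure D1:**
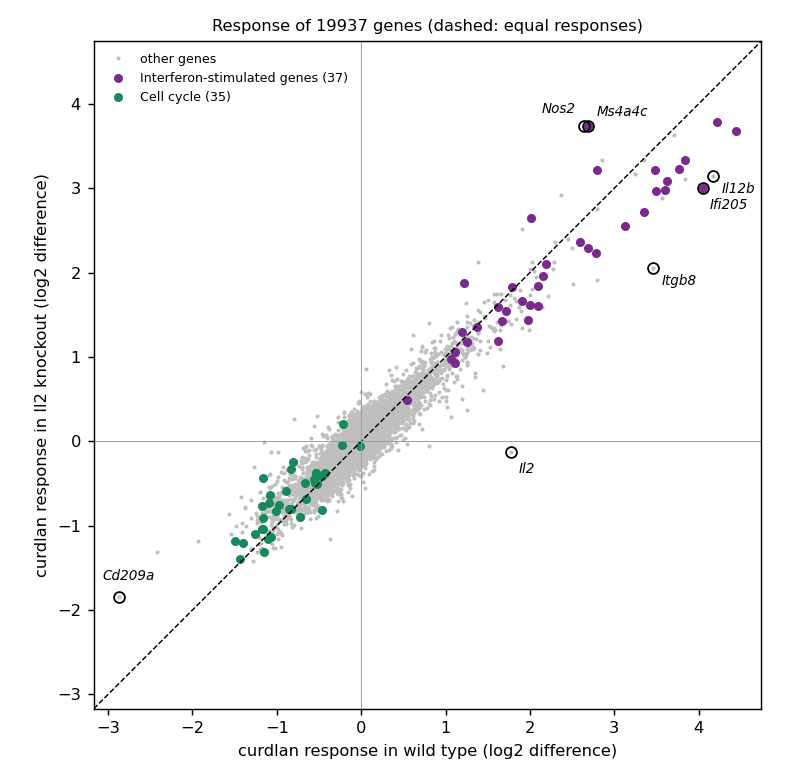
Curdlan response (treated minus untreated, log2) of 19937 genes in wild-type cells (horizontal) and Il2 knockout cells (vertical), each point 1 gene from 3 arrays per group; the dashed line marks equal responses. Most genes follow the line, Il2 sits at 1.77 and -0.13, and many interferon-stimulated genes (purple) lie below the line at high responses.

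Among the strongest responders the knockout response was more often the smaller one, and the direction of the median rested on 1 pair. Averaged over the genotypes, curdlan changed 7551 genes (37.9%). Of the 218 that rose 2-fold or more, 150 (68.8%) had the smaller response in the knockout, with a median interaction of -0.11. In 40 of the 218 all knockout pairs lay below all wild-type pairs and in 6 above them, beside 4.54% and 5.93% of all genes. Their median response per pair was 1.50, 1.45 and 1.34 in wild type and 1.53, 1.48 and 1.02 in the knockout. Knockout pair 3 was the low one, and the other pairs of both genotypes overlapped. Without knockout pair 3, or without its treated array alone, the median interaction was 0.05. For the 68 genes that fell 2-fold or more, 43 had the smaller response in the knockout and the median interaction was 0.05. That value was 0.38 without treated wild-type array 2, 0.28 without untreated wild-type array 1, and 0.18 without untreated wild-type array 3.

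The 30 genes taken for description were the 15 per direction with the lowest unadjusted p whose pair responses did not overlap between genotypes and whose highest group mean was above the median gene mean. None passed after adjustment with all 12 arrays, and the lack of overlap is part of how they were chosen. Over all genes, pair responses did not overlap for 10.5%, with the knockout lower for 4.54% and higher for 5.93%; 3 pairs against 3 cannot give an exact permutation p below 0.1. In the lower set, 12 of the 15 rose with curdlan in wild type and none fell. In the higher set, 13 of the 15 fell in wild type and none rose. Over all genes, 7.27% rose and 12.3% fell in wild type. The wild-type response is a term of the interaction, so these directions follow in part from the choice of genes.

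**Figure D2:**
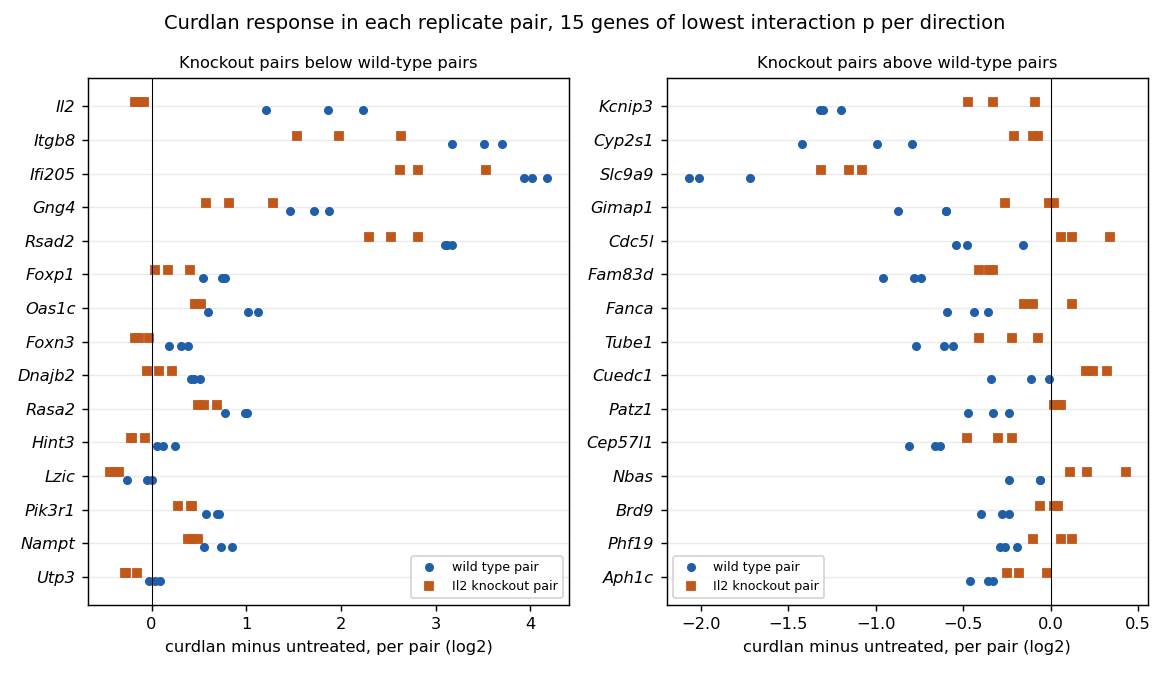
Curdlan response per replicate pair (log2, treated minus untreated) for the 15 genes per direction with the lowest interaction p, wild-type pairs as circles and knockout pairs as squares. The knockout pairs lie below the wild-type pairs on the left, from Il2 (-0.17 to -0.08 against 1.21 to 2.23) downwards, and above them on the right; the genes were chosen for this.

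Beside Il2, the lower set held genes whose treated levels differed by genotype. Itgb8 encodes the integrin beta 8 subunit, which activates latent TGF-beta. Its untreated levels were 5.35, 6.08 and 6.25 in wild type and 5.46, 5.90 and 6.13 in the knockout. With curdlan they were 8.87, 9.78 and 9.42 against 8.10, 7.88 and 7.67. The untreated arrays overlapped, and all 3 treated knockout arrays lay below the treated wild-type arrays. Itgb8 rose 11-fold in wild type and 4.15-fold in the knockout, an interaction of -1.41 ± 0.38 (SE, p 0.00301, adjusted p 1). The treated levels differed by -1.47 (adjusted p 0.0345).

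Gng4, a G protein gamma subunit gene, had untreated levels of 7.17, 7.29 and 7.15 in wild type and 7.03, 7.18 and 7.11 in the knockout. Treated levels were 9.04, 9.01 and 8.61 in wild type, and the 3 in the knockout ran from 7.69 to 8.31. As with Itgb8, the genotypes were apart with curdlan and near each other without it. Gng4 rose 3.21-fold and 1.86-fold, an interaction of -0.79 ± 0.20 (p 0.00248, adjusted p 1). Foxp1, a forkhead transcription factor gene, rose by 0.69 in wild type (adjusted p 0.00089) and gave 0.21 in the knockout (adjusted p 0.149), an interaction of -0.48 ± 0.14 (p 0.00616, adjusted p 1). Its treated levels were 9.36, 9.47 and 9.37 against 9.01, 9.23 and 8.75, without overlap.

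The lower set also held signalling and metabolic genes. Pik3r1, the p85 alpha regulatory subunit of PI3 kinase, rose by 0.66 in wild type and 0.38 in the knockout. Nampt, the enzyme of NAD salvage, rose by 0.71 and 0.43. Rasa2, a Ras GTPase-activating protein gene, rose by 0.92 and 0.58. Dnajb2, a co-chaperone gene, rose by 0.46 in wild type and gave 0.08 in the knockout (adjusted p 0.411). The interactions of these 4 lay between -0.38 and -0.27, with unadjusted p between 0.0035 and 0.00586. The remaining members were Foxn3 (-0.40), Hint3 (-0.31), Lzic (-0.28), Utp3 (-0.27), the antiviral gene Oas1c (-0.43), and Rsad2 (-0.58) and Ifi205 (-1.05), which are described with the interferon-stimulated genes. Utp3, a factor of ribosome assembly, fell by 0.23 in the knockout (adjusted p 0.0098) and gave 0.03 in wild type (adjusted p 0.711). Lzic fell by 0.39 in the knockout (adjusted p 0.0011) and gave -0.10 in wild type.

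**Figure D3:**
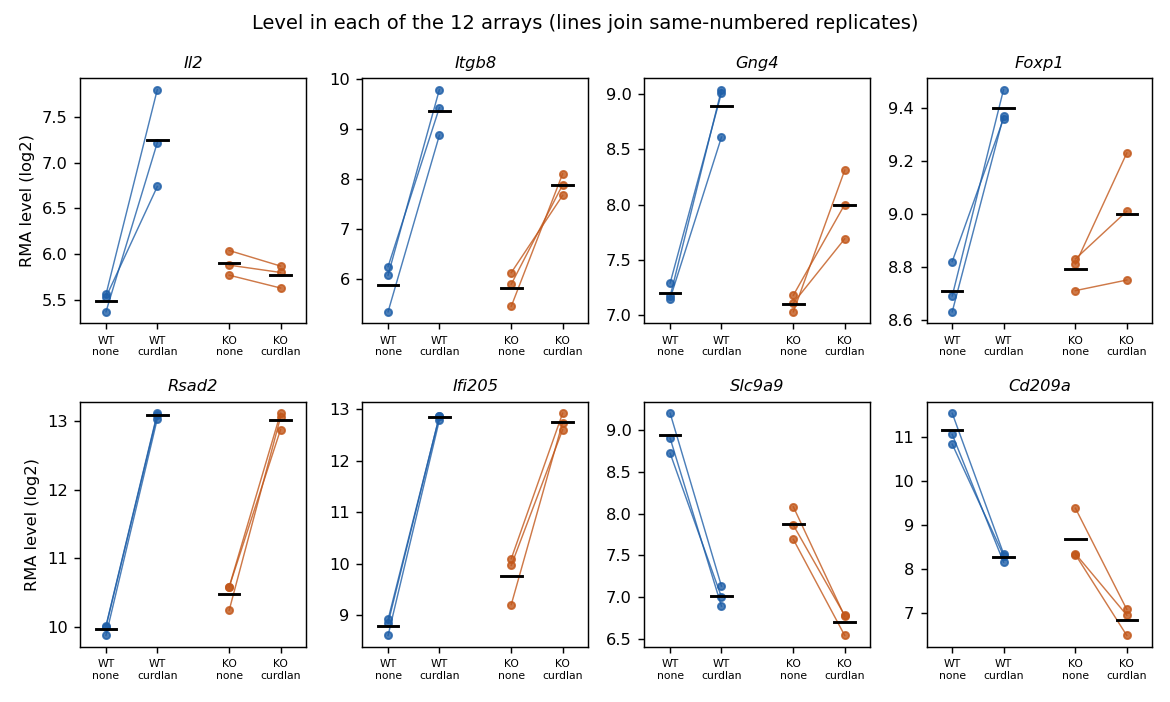
RMA level (log2) of 8 genes in each of the 12 arrays, wild type (WT, blue) and Il2 knockout (KO, orange), untreated (none) or with curdlan; lines join same-numbered replicates, black bars are group means of 3 arrays, and each panel has its own axis. In Il2, Itgb8, Gng4 and Foxp1 the genotypes part with curdlan, although the untreated knockout arrays of Il2 lie above the untreated wild-type ones. In Rsad2, Ifi205, Slc9a9 and Cd209a the genotypes differ before curdlan.

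In the higher set the difference lay mostly on the untreated side. Slc9a9 encodes a sodium-proton exchanger of endosomes. Its untreated levels were 8.90, 9.20 and 8.72 in wild type and 8.08, 7.69 and 7.86 in the knockout. Its treated levels were 6.89, 7.13 and 7.00 against 6.77, 6.54 and 6.78. The untreated knockout arrays lay well below the wild-type arrays and the treated ones just below. Slc9a9 fell by 1.93 in wild type and by 1.18 in the knockout, an interaction of 0.75 ± 0.18 (p 0.0014, adjusted p 1; range over the alternatives 0.63 to 0.86).

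Kcnip3, a calcium sensor gene, had untreated levels of 7.73, 8.19 and 7.44 in wild type and 6.67, 6.72 and 6.08 in the knockout. Treated levels were 6.53, 6.89 and 6.12 against 6.34, 6.25 and 6.00. All 3 wild-type pairs dropped by nearly the same amount, 1.20, 1.30 and 1.32, although their levels differed. Its interaction was 0.98 ± 0.33 (p 0.0116, adjusted p 1), and with the pair block the p was 9.69e-06 (adjusted p 0.0966). Cyp2s1, a cytochrome P450 gene, fell by 1.07 in wild type (adjusted p 0.000953) and gave -0.13 in the knockout, an interaction of 0.94 ± 0.22 (p 0.00135). For 14 of the 15 genes the untreated knockout mean was below that of wild type, with a median difference of -0.46, against -0.10 with curdlan. Over all genes these medians were 0.01 and 0.02. The untreated difference is also a term of the interaction, so its direction follows in part from the choice of genes.

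The other members of the higher set spanned several roles. Cep57l1 fell in both genotypes, by 0.70 and 0.33. Fam83d, of the mitotic spindle, also fell in both, by 0.83 and 0.36. Another 8 fell in wild type and did not pass in the knockout: the Fanconi anaemia gene Fanca (-0.47 and -0.04), the GTPase gene Gimap1 (-0.69 and -0.08), the chromatin remodelling subunit gene Brd9 (-0.31 and 0.00), the zinc finger gene Patz1 (-0.34 and 0.04), the Polycomb-associated gene Phf19 (-0.25 and 0.03), the gamma-secretase subunit gene Aph1c (-0.39 and -0.15), the epsilon tubulin gene Tube1 (-0.65 and -0.23) and the splicing gene Cdc5l (-0.39 and 0.17). Nbas and Cuedc1 rose in the knockout, each by 0.25, and gave -0.12 and -0.15 in wild type.

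Apart from Il2, the IL-2 pathway showed small interaction estimates. Of 16 measured cytokine, receptor, JAK and STAT5 genes, 1 (Il2) had a lower and 1 (Il9r, 0.21) a higher knockout response at an unadjusted p under 0.05. Over all genes the shares were 0.993% and 1.78%. The median interaction of the 16 was -0.04, against 0.01 over all genes. Il2ra had untreated levels of 11.83, 11.99 and 11.73 in wild type and 10.91, 10.71 and 10.48 in the knockout, and treated levels of 12.13, 12.27 and 12.07 against 11.51, 11.42 and 10.96. The knockout arrays were lower in each treatment. The knockout pairs gave 0.60, 0.72 and 0.48 and the wild-type pairs 0.30, 0.28 and 0.34, without overlap. The interaction was 0.29 ± 0.20 (p 0.172; 0.00691 with the pair block, adjusted p 0.645). Il2rb gave 0.47 and 0.27 (interaction -0.19, 95% interval -0.40 to 0.02), at levels near 5. Stat5a rose by 1.21 and 1.04, and Il15, a cytokine that shares the beta and gamma chains, rose by 1.71 and 1.68. Il2rg and Jak3 were not tested, because none of their probe sets carried a single symbol.

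Among 21 STAT5 targets and feedback genes, none reached an unadjusted p under 0.05 in either direction, beside 2.77% of all genes. The median interaction was -0.05, and 15 of the 21 lay below 0, beside 45.9% of all genes. Cish, an inhibitor that STAT5 induces, gave 0.31 in wild type and 0.23 in the knockout. Bcl2l1, which encodes the survival protein BCL-XL, gave 0.45 and 0.16, and Myc gave -0.41 and -0.71. Ltb, which encodes lymphotoxin beta, gave -0.35 and 0.05. With the pair block, p was 0.00261 for Bcl2l1, 0.00294 for Ltb and 0.00505 for Myc, and none of the 3 passed after adjustment. These 3 were the list members with a block p under 0.05 (14.3%, beside 5.49% of all genes).

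In the lists of receptor and signalling genes upstream of Il2, 0 genes had an unadjusted interaction p under 0.05, beside 2.77% of all genes. With the pair block 0 did, beside 5.49% of all genes. At such shares, lists of this size would hold few such genes in any case. All 18 genes of the Dectin-1 list had a 95% interval within 1 of 0, beside 98.4% of all genes, and their median interaction was 0.04. Clec7a itself had group means of 12.53 and 12.57 in wild type and 12.67 and 12.59 in the knockout, an interaction of -0.12 (95% interval -0.30 to 0.06). Syk gave 0.22 and 0.26, and Card9 gave -0.71 and -0.62. Of 18 calcineurin-NFAT genes the widest estimate was that of the prostaglandin synthase gene Ptgs2, which rose by 2.86 and 3.33 (interaction 0.47 ± 0.41, p 0.266). Among 19 NF-kB genes, 17 rose in wild type and 16 in the knockout, and every interaction lay between -0.09 and 0.16.

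Interferon-stimulated genes, which block viral growth after type I interferon, had the lowest median interaction of 27 gene lists. All 37 measured rose in both genotypes, by a median of 2.10 in wild type and 1.96 in the knockout. The knockout response was the smaller in 31 of the 37, beside 45.9% of all genes with an estimate below 0, and the median interaction was -0.25. At an unadjusted p under 0.05, 10 of the 37 had a lower knockout response (0.993% of all genes) and 1 a higher one. With the pair block the counts were 18 (1.94% of all genes) and 1. The knockout pairs lay below all wild-type pairs in 16 of the 37 (4.54% of all genes). All genes are mostly unlike this list, since all 37 rose. Of the 218 genes that rose 2-fold or more, which share members with the list, 68.8% had the smaller response in the knockout. In 23 of the 218 the response was smaller with an unadjusted p under 0.05 (limma, no block), and in 40 the knockout pairs lay below. A lower knockout response was thus not particular to this list.

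By group means, the genotypes differed mainly in the untreated arrays. Untreated Rsad2, which encodes the antiviral enzyme viperin, had levels of 10.00, 9.87 and 10.01 in wild type and 10.24, 10.58 and 10.58 in the knockout. Treated levels were 13.10, 13.04 and 13.12 against 13.06, 13.12 and 12.88. The untreated knockout arrays were all higher, and the treated arrays overlapped. Rsad2 rose 8.74-fold and 5.86-fold, an interaction of -0.58 ± 0.13 (p 0.00111, adjusted p 1).

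Ifi205, a PYHIN family gene whose relatives are close in sequence, had untreated levels of 8.61, 8.85 and 8.92 in wild type and 9.21, 10.10 and 9.97 in the knockout. Treated levels were 12.79, 12.87 and 12.86 against 12.74, 12.92 and 12.60. Again the genotypes overlapped with curdlan and not without it. Ifi205 rose 16.5-fold and 7.98-fold, an interaction of -1.05 ± 0.26 (p 0.00195, adjusted p 1). Over the list, the untreated knockout mean was higher in 32 of 37 genes with a median genotype difference of 0.31, and with curdlan the median difference was 0.03. That small difference joins treated arrays that went both ways. Their list means were 11.45, 11.64 and 11.03 in the knockout against 11.34, 11.27 and 11.34 in wild type. The median response per pair was 2.16, 2.07 and 2.22 in wild type and 2.34, 2.00 and 1.73 in the knockout, so the pairs overlapped.

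Irf7, the transcription factor that amplifies the response, had an interaction of -0.63 (p 0.0473). Ifit1 gave -0.62 (p 0.00835), Oasl2 -0.54 (p 0.00848) and Ifit3 -0.54 (p 0.0155), each with knockout pairs below wild-type pairs. The members above 0 were Usp18, Irf1, Iigp1, Gbp5, Gbp3 and Ms4a4c, of which the last rose 6.45-fold in wild type and 13.3-fold in the knockout (interaction 1.05 ± 0.44, p 0.037). Gbp3 and Gbp5 encode GTPases that interferon gamma also induces, and Ms4a4c is a membrane protein gene. Of the 29 list members with a promoter in the RefSeq table, 12 held the response core shown in capitals above, beside 3.4% of all genes tested with a promoter; Rsad2 and Ifi205 are 2 of these 12. The list median was -0.14 without knockout pair 3, -0.12 without its treated array alone, and below 0 under all 26 alternatives that give a list median. The plasmacytoid dendritic cell marker list had per-array means between 7.18 and 7.75. Its defining gene Siglech stayed between 5.87 and 5.96 in group means. Of its 6 tested genes, 3 were above the median gene mean, among them Cox6a2 and Bst2 (group means 9.69 to 10.96). Whether plasmacytoid cells had a part in the results was not tested. Over all 10 marker lists, 1 gene, Klra8 of NK cells (0.18, p 0.0479), had an unadjusted interaction p under 0.05 (2.77% of all genes). With the pair block 9 of the 108 marker genes did, beside 5.49% of all genes: 3 of conventional dendritic cells, 2 each of macrophages and neutrophils, and 1 each of plasmacytoid and erythroid cells.

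**Figure D4:**
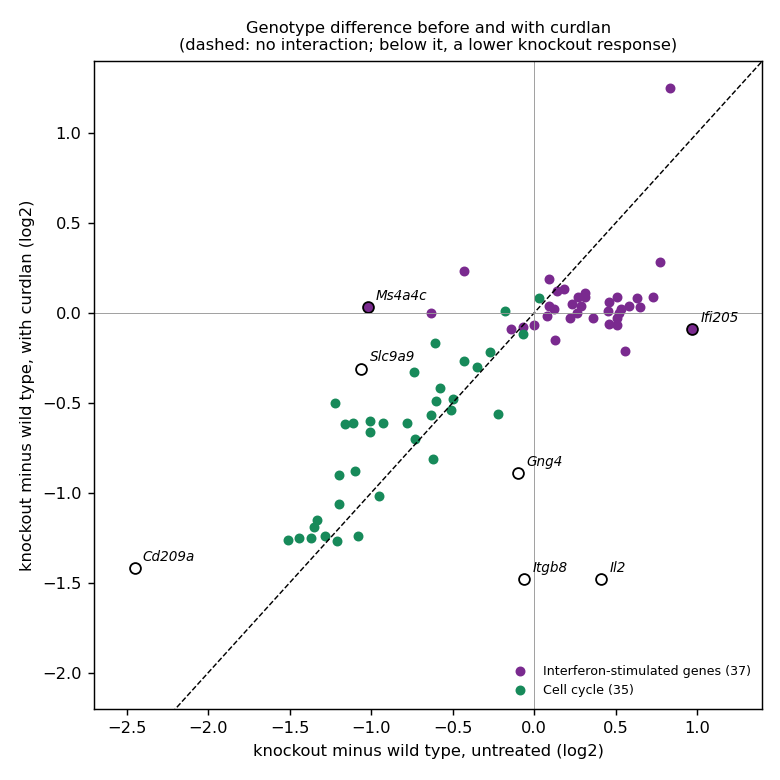
Knockout minus wild type (log2, group means of 3 arrays) without curdlan (horizontal) and with it (vertical) for the interferon-stimulated and cell cycle lists and 7 labelled genes; the vertical distance from the dashed line is the interaction. Interferon-stimulated genes spread to the right near a vertical value of 0 (medians 0.31 and 0.03), cell cycle genes lie to the lower left, and Il2, Itgb8 and Gng4 lie below the line.

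Cell cycle genes fell with curdlan and started lower in the knockout. Of 35 measured, 30 fell in wild type and 26 in the knockout, by a median of 0.86 and 0.73. The interaction was above 0 in 28 of 35, beside 54.1% of all genes, with a median of 0.15. One gene, Cenpf, which encodes a kinetochore protein, reached an unadjusted p under 0.05, and with the pair block 9 did (beside 5.49% of all genes). Of these 9, 8 had the less negative response in the knockout (3.55% of all genes), and Cdc6, which loads the replicative helicase, went the other way (-0.34, block p 0.0152). The median was 0.11 after array medians were subtracted. It was -0.13 with array weights, -0.02 without untreated wild-type array 2 and -0.04 without treated wild-type array 1, so its direction was not stable. In bulk RNA, fewer dividing cells and less RNA per cell cannot be told apart.

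Mki67, the proliferation marker, had untreated levels of 10.29, 10.93 and 10.44 in wild type and 9.24, 9.20 and 9.72 in the knockout. Treated levels were 9.48, 10.14 and 9.61 against 9.14, 9.01 and 9.25. The knockout arrays were lower before curdlan and still lower with it, by less. The interaction was 0.55 ± 0.28 (p 0.0762; 0.000494 with the pair block, adjusted p 0.333). Cenpf fell by 1.16 in wild type (adjusted p 0.00179) and gave -0.43 in the knockout, an interaction of 0.72 ± 0.27 (p 0.0202; 0.000288 with the block, adjusted p 0.303).

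Of 27 lectin and phagocytic receptor genes measured, 4 had a higher knockout response at an unadjusted p under 0.05 (1.78% of all genes), and none of these passed after adjustment. They were Cd209a, Cd209c, Cd209d and Clec10a, each with a less negative response in the knockout and no pair overlap (5.93% of all genes). Cd209a is the mouse gene most often called DC-SIGN. Its untreated levels were 11.05, 11.53 and 10.83 in wild type and 9.38, 8.35 and 8.33 in the knockout. With curdlan they were 8.16, 8.35 and 8.31 against 7.09, 6.96 and 6.50. The knockout was lower in both treatments, and more so without curdlan. Cd209a fell by 2.87 and 1.84, an interaction of 1.03 ± 0.38 (p 0.0187, adjusted p 1). Cd209c gave 1.11 and Cd209d 0.59; the CD209 genes resemble each other in sequence, and their separation on the array is uncertain. The median of the 27 genes was 0.01. The conventional dendritic cell markers, whose per-array mean ran from 10.19 to 10.65, had a median interaction of 0.00 over 18 genes. Macrophage and monocyte markers had per-array means of 10.63 to 11.22 and also a median of 0.00, over 12 genes. Of these 12, 11 were above the median gene mean. So were 2 of 10 mast cell, basophil and eosinophil markers (Gata2 and Siglecf). Of 7 erythroid and megakaryocyte markers, 2 were (Pf4 and Ppbp). The part of such cells in the results was not tested.

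Inflammatory cytokine genes had wide intervals. Il12b, which encodes the p40 subunit of IL-12 and IL-23, had untreated levels of 7.13, 6.99 and 7.60 in wild type and 6.62, 8.10 and 8.67 in the knockout. Treated levels were 11.72, 11.38 and 11.13 against 11.20, 11.40 and 10.21. Knockout pair 1 responded like the wild-type pairs (4.58 against 4.59, 4.39 and 3.52), and knockout pair 3 gave 1.54. The interaction was -1.03 ± 0.63 (95% interval -2.41 to 0.36, p 0.131) and ranged from -1.75 to -0.23 over the alternatives. Of the 24 cytokine genes none reached an unadjusted p under 0.05, beside 2.77% of all genes. With the pair block 2 (8.33%) did, beside 5.49% of all genes. In each genotype 16 of the 24 rose, and the median interaction was -0.09. Tnf gave 0.83 and 0.76, and Il6 rose by 2.71 and 2.29.

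Nos2, the inducible nitric oxide synthase gene, pointed the other way. Its untreated levels were 6.00, 6.17 and 6.14 in wild type and 5.72, 6.22 and 6.02 in the knockout. With curdlan they were 8.65, 8.69 and 8.89 against 9.15, 11.22 and 8.82. One treated knockout array stood far above the others, and the rest overlapped. Nos2 rose 6.25-fold and 13.4-fold, an interaction of 1.10 ± 0.65 (p 0.116) that ranged from 0.35 to 1.57 over the alternatives. Among the 21 chemokine genes the lowest interaction was that of Cxcl9 (-0.89 ± 0.85, p 0.319). None of the 21 reached an unadjusted p under 0.05, beside 2.77% of all genes. With the pair block Cxcl9 and Cxcl3 (-0.54) did (9.52%, beside 5.49% of all genes).

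Among maturation and death genes, Cd70 and Fscn1 reached an unadjusted p under 0.05 (beside 2.77% of all genes). Of 24 maturation, costimulation and migration genes, Cd70 had a lower knockout response (1.64 and 1.10, p 0.0403) and Fscn1, the actin bundler of migrating dendritic cells, a higher one (1.24 and 1.64, p 0.0457). With the pair block, 4 of the 24 (16.7%) had a p under 0.05, beside 5.49% of all genes. Cd40 rose by 2.37 and 2.92. Of 27 pro-apoptotic, 17 anti-apoptotic and 16 pyroptosis and necroptosis genes, 0 reached an unadjusted p under 0.05 by limma (beside 2.77% of all genes), and with the pair block 4 of the 60 did (beside 5.49% of all genes). The medians were each -0.01. For 26 of the 27 pro-apoptotic genes the 95% interval lay within 1 of 0, beside 98.4% of all genes. Tnfsf10, the death ligand TRAIL, rose by 3.35 and 3.34 (interaction -0.01, 95% interval -1.04 to 1.02). Fas, a death receptor gene, rose by 0.90 and 0.80, and Casp8 gave 0.12 and 0.09. The BH3-only gene Bcl2l11 (BIM) gave 0.17 and -0.07, with pairs at 0.32, 0.11 and 0.08 against -0.03, -0.14 and -0.04 (interaction -0.24 ± 0.17, p 0.183). The caspase inhibitor gene Birc5 fell by 1.06 in wild type (adjusted p 0.0033) and gave -0.53 in the knockout, and with the pair block its interaction of 0.52 had a p of 0.00024 (adjusted p 0.273); it is also a mitotic gene.

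The lists of oxidative stress and cholesterol genes leaned one way by small amounts. In 16 of 17 NRF2 and oxidative stress targets the estimate was below 0, beside 45.9% of all genes, with a median of -0.07. Taldo1 alone had an unadjusted p under 0.05 (beside 2.77% of all genes). With the pair block 3 (17.6%) did, beside 5.49% of all genes. In 15 of 16 cholesterol synthesis genes the estimate was below 0, beside the same 45.9%, with a median of -0.07. Idi1, an isoprenoid isomerase gene, rose by 0.40 in wild type and gave 0.11 in the knockout (p of the interaction 0.027, limma). With the pair block Cyp51 (-0.20) also had a p under 0.05, so 2 did (12.5%, beside 5.49% of all genes). Immediate early genes had a median of -0.10 over 22 genes. Zfp36, which speeds the decay of cytokine mRNA, rose by 0.34 in wild type (adjusted p 0.00427) and gave 0.11 in the knockout (p of the interaction 0.0314). Ribosomal protein, oxidative phosphorylation, glycolysis, unfolded protein and p53 lists had medians between -0.05 and -0.01. Of 16 genes near Il2 on chromosome 3, which a knockout can carry from its strain of origin, 1 had a p under 0.05, 4932438A13Rik (-0.23). Over all genes 2.77% did.

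**Figure D5:**
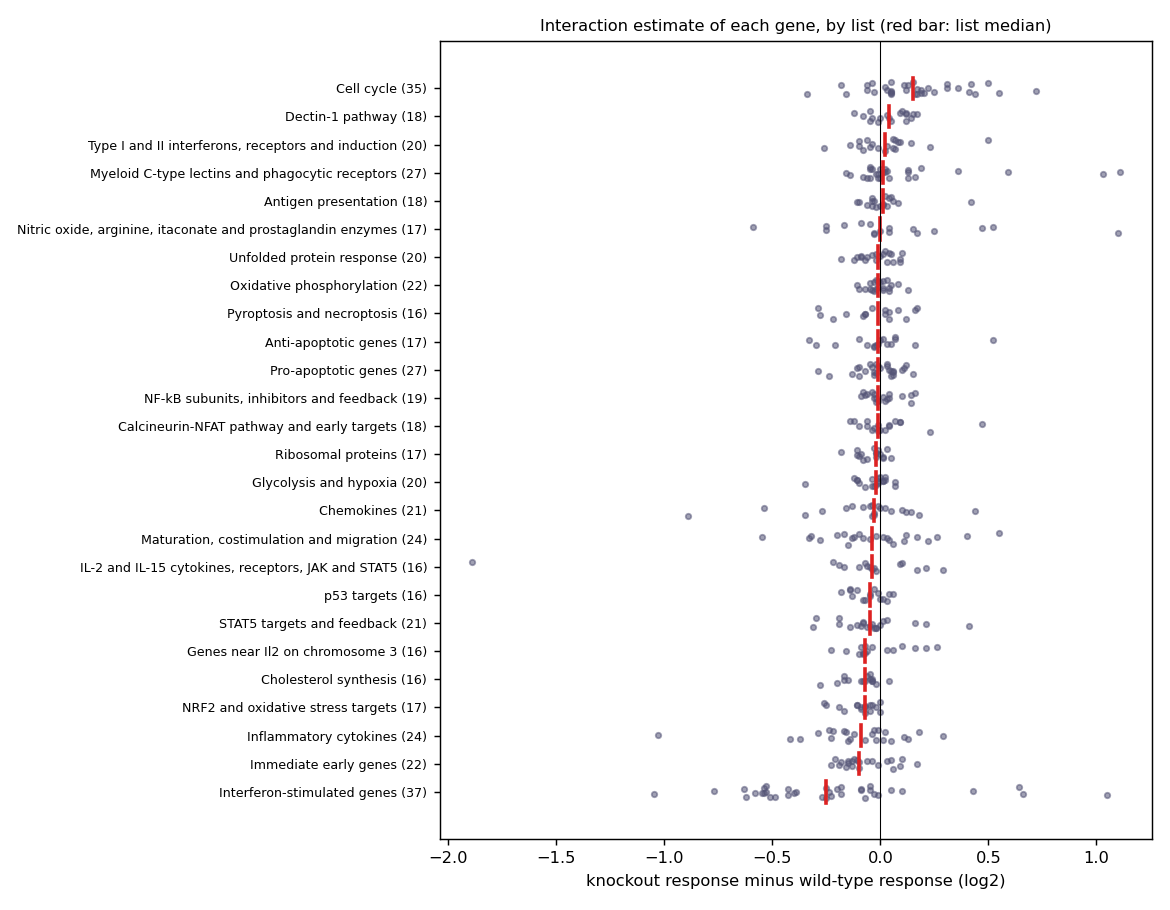
Interaction estimate (knockout response minus wild-type response, log2) of every measured gene in 26 lists, 1 point per gene, with the list median as a red bar; the number of genes is in brackets and vertical scatter is for legibility. The medians lie between -0.25 for interferon-stimulated genes and 0.15 for cell cycle genes, and Il2 is the leftmost point.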

How the data were processed

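RNA of 12 samples was hybridised to Affymetrix Mouse Gene 1.0 ST arrays, 3 per group. The deposited values are on a log2 scale and were made by the authors with RMA, per the submitters' processing notes; neither its version nor a genome build is named there. Of 34760 probe sets, 21640 carried exactly 1 symbol and gave 19937 genes. Nothing was filtered or normalised further.

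A mean per group was fitted with limma 3.58.1 in R 4.3.3 (8 residual degrees of freedom, two-sided moderated test, Benjamini-Hochberg adjustment over all genes, threshold 0.05). SD is over 3 arrays. No label says that replicates were separate animals. Y-linked levels differed between pairs of a genotype, so these pairs cannot all be repeats of the same marrow. How many animals were used is unknown. Each p reflects only how these samples vary, which may be partly technical, and the number of arrays limits the precision. After removal of group means, same-numbered arrays of a genotype correlated at 0.37 to 0.6 and differently numbered arrays of a genotype at -0.48 to 0.063. The numbers were therefore taken to pair the samples within a genotype. Arrays of different genotypes correlated at -0.33 to 0.38, the highest for treated wild-type array 1 with untreated knockout array 2. The fit with the pair as a block is given beside the counts it changes most.

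Genes named are Il2, Il2ra, Il2rb and Clec7a; up to 15 per direction past the threshold, filled with the lowest unadjusted p among genes with non-overlapping pairs and a group mean above the median; up to 5 per direction past the threshold with the pair block; up to 5 past the threshold in opposite directions in the genotypes; and up to 2 per list with the largest interaction, if above the median. Predicted, clone, small RNA and olfactory or vomeronasal receptor genes were left out except from lists. Others were picked after their values were seen. There are 27 gene lists and 10 cell type marker lists; 626 of their genes were tested and 52 were not, and 3 were found under former symbols. Members and lists were chosen with earlier results of these data known. The fit was tested on simulated data. Alternatives were a fixed or random pair block, a filter on dim genes, centring, renewed quantile normalisation, the mean of probe sets, a variance trend, array weights, all probe sets, and leaving out each array or pair.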

Additional observations from a re-analysis of the deposited data

Results flagged for a closer look

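For 8 named genes all 3 wild-type pairs moved one way with curdlan and all 3 knockout pairs the other. Over all genes, 190 (0.953%) did so, 94 with wild type up and 96 with wild type down. Wild-type pairs were up and knockout pairs down for Il2 (interaction -1.89), Foxn3 (-0.40), Hint3 (-0.31) and Bcl2l11 (-0.24). Wild-type pairs were down and knockout pairs up for Cdc5l (0.57), Cuedc1 (0.40), Patz1 (0.39) and Nbas (0.37). The test of the difference itself, the interaction, did not pass after adjustment for any of the 8 (adjusted p 0.357 for Il2 and 1 for the others, limma). Il2 was the only one of the 8 with a pair response above 1 in size. No test for single samples that stand apart was run within groups of 3 arrays. The fitted array weights ran from 0.35 to 3.73, and the lowest was that of treated wild-type array 1.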

How the results depend on the processing

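Under 9 alternatives that kept all arrays, the count of interaction genes past the threshold was 0. Those that left out arrays or pairs gave 0 to 3, and Il2 estimates from -2.17 to -1.62 (adjusted p 0.0113 to 1). The count at an unadjusted p under 0.05 was 1094 with the fixed replicate block, 1003 with the random replicate block, 2054 with array weights, 230 of the brighter genes alone, where fewer genes were tested, 1123 over all probe sets, where more were tested (chosen after seeing the data), and 335 to 1129 with arrays left out. Except for the filter and the probe sets, the cause was not tested. Curdlan calls with arrays left out ranged from 1841 to 4011 in wild type and from 1079 to 5284 in the knockout, where fewer samples were fitted. With arrays left out, the median interaction of genes that fell 2-fold or more ranged from -0.01 to 0.38, and with array weights it was -0.05; that of genes that rose ranged from -0.21 to 0.05 over the alternatives. None of the 30 genes described for their low p changed sign under any of the 26 alternatives that give single genes, and 14 of the 100 named genes did so in at least 1. Of 960 list medians recomputed, 108, from 24 lists, moved by more than the spread between pairs. With 3 arrays per group, interactions under about 1 log2 unit could not pass on their own at the median SE. Il2rb lay below the median gene mean, as did Il2 in all arrays except treated wild-type arrays 1 and 2.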
